A study of Mus musculus with 6 samples.

Results

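The 37 genes of the mouse mitochondrial genome were followed in 6 RNA libraries of bone marrow LSK cells, lineage-negative cells positive for Sca-1 and c-Kit in which blood stem and multipotent progenitor cells are enriched. Members were chosen by symbol (the prefix mt-) and by position on the mitochondrial chromosome, and they are 37 of the 54532 genes in the deposited files: 13 protein-coding, 2 rRNA and 22 tRNA genes. All 6 libraries came from bone marrow labelled Phf6fl-R274X/Y, a floxed R274X allele of the X-linked gene Phf6 in males. In 3 libraries (floxed) no Cre is named, and in the other 3 (Vav1-Cre) the genotype adds Vav1-Cre, a recombinase driven in blood cells, so the presence of Cre and the recombined allele cannot be told apart. The labels give no ages, and nothing in them ties a library to its own mouse, so each p-value rests on the variation among these libraries, part of which may be technical. Phf6 RNA, read in every library as a check of the labels, was 31.77, 29.59 and 33.53 CPM (counts scaled by the effective library size explained below) in the floxed libraries and 8.47, 10.25 and 8.30 in the Vav1-Cre libraries.

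The mitochondrial genome is a small circular DNA present in many copies per cell. It encodes core subunits of respiratory complexes I, III and IV and of ATP synthase (complex V), together with the rRNAs and tRNAs that translate them inside the organelle, while every other protein of the organelle comes from nuclear genes. Each strand is transcribed as a long precursor, and tRNAs are cut out of it, which frees the mRNAs and rRNAs that lie between them. Blood stem cells are known for relying on respiration less than the progenitors they give rise to.

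Total counts ran from 15406314 to 18106065 per library. Immunoglobulin genes took 0.29% to 1.18% of counts in the floxed libraries and 4.45% to 7.95% in the Vav1-Cre libraries. Summed markers of B and plasma cells (7 of 10 called higher), macrophages (3 of 7), erythroid cells (3 of 7) and T cells (5 of 5) were also above the floxed range in every Vav1-Cre library, with none of these markers at 0 in all libraries, and neutrophil markers overlapped (0 of 7 called). These lists summed to 329.9 to 1086 CPM against 2404 to 5546 for B and plasma cells, 160.8 to 395.4 against 864.1 to 1923 for macrophages, 822.8 to 1218 against 1879 to 3195 for erythroid cells, 13.4 to 15.6 against 30.4 to 43.9 for T cells and 16790 to 28180 against 12680 to 33380 for neutrophils. Of 4 LSK markers, the gate genes Kit (c-Kit) and Ly6a (Sca-1) with Cd34 and Flt3, 3 were called lower and 1 higher, and all had counts. These 4 summed to 1388 to 1459 CPM in the floxed and 1071 to 1196 CPM in the Vav1-Cre libraries. RNA was read in bulk, so fewer cells of a type and less RNA per cell cannot be told apart. The part of these other cells in the mitochondrial results was not tested.

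Transcripts of the 37 genes made up 1.952%, 1.819% and 2.243% of all counts in the floxed libraries and 1.645%, 1.652% and 1.745% in the Vav1-Cre libraries. Every Vav1-Cre library was below every floxed library, with means of 2.005 ± 0.217% and 1.681 ± 0.0558% (SD, n = 3 each). No p is given for such a sum over the members. The order held only relative to the raw total. With immunoglobulin genes left out of the total, the values were 1.965%, 1.824% and 2.27% against 1.766%, 1.795% and 1.826%. The groups then overlapped only through floxed library 2 and Vav1-Cre library 3, at the close values of 1.824% and 1.826%. The effective library size is the total scaled by the trimmed mean of M-values (TMM) so that most genes stay level. Relative to it, the shares were 1.872%, 1.677% and 2.137% against 1.797%, 1.756% and 1.798%. Here the Vav1-Cre libraries lay inside the floxed range. The effective size was 1.043, 1.085 and 1.05 times the total in floxed libraries and 0.915, 0.941 and 0.970 times in Vav1-Cre libraries.

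**Figure D1:**
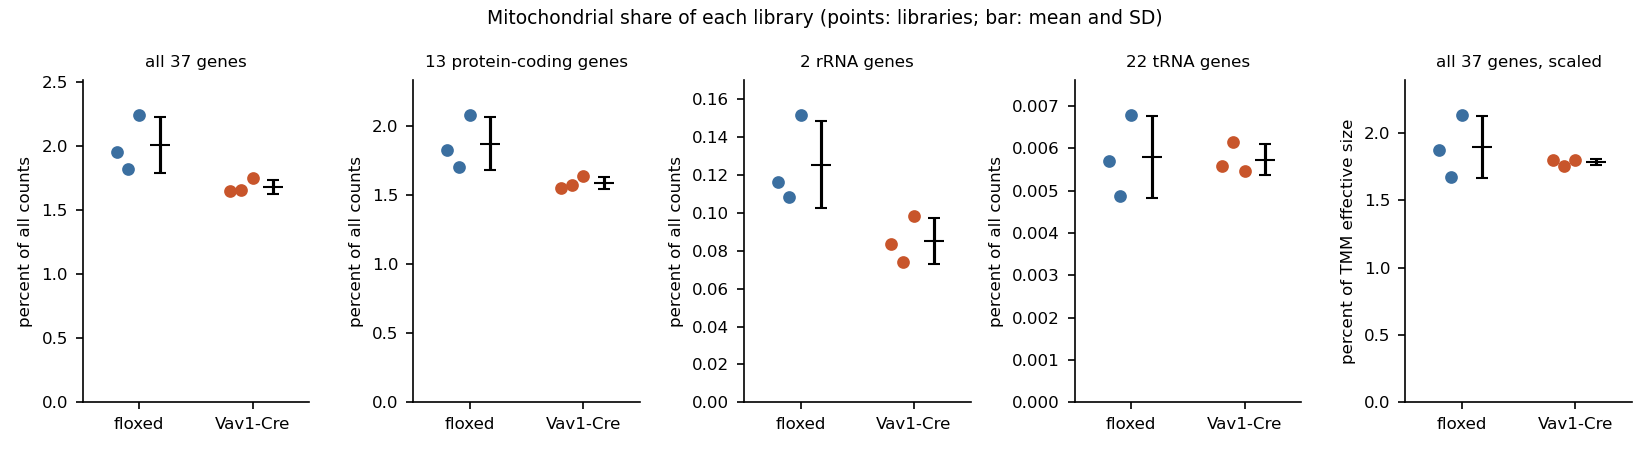
Share of each library taken by mitochondrial genes, as percent of all counts (panels 1 to 4) and of the TMM effective library size (panel 5); points are libraries, bars the mean and SD. The groups are apart for all 37 genes as percent of counts (1.645% to 1.745% against 1.819% to 2.243%) and overlap in the scaled panel.

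By class, protein-coding genes took 1.831%, 1.706% and 2.085% of counts in floxed and 1.556%, 1.572% and 1.641% in Vav1-Cre libraries. The rRNA genes took 0.116%, 0.108% and 0.152% against 0.0833%, 0.0740% and 0.0982%. As percent of all counts the groups did not overlap in either class. Relative to the effective library size both overlapped, with 1.755%, 1.572% and 1.986% against 1.700%, 1.671% and 1.691% for protein-coding genes and 1114, 997.7 and 1446 against 910.7, 786.8 and 1012 CPM for the rRNA genes. The 22 tRNA genes held 0.00570%, 0.00488% and 0.00680% against 0.00558%, 0.00615% and 0.00547%, with overlapping groups. The 95% Wilson interval of any of these shares was at most 0.0138 percentage points wide, which covers counting error only. Within the mitochondrial counts, mt-Co1, mt-Cytb and mt-Nd1 together held 76.17% to 76.38% in the floxed and 76.33% to 77.09% in the Vav1-Cre libraries. The summed weight of the 3 most counted mRNAs was thus nearly level, but not that of each. The mean share of mt-Nd1 was 10.07 ± 0.413% in floxed and 11.6 ± 0.557% in Vav1-Cre libraries (SD). For mt-Cytb it was 16.66 ± 0.403% against 17.07 ± 0.583%, and for mt-Co1 49.56 ± 0.823% against 48.12 ± 1.32%.

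Of the 37 genes, 21 passed the count filter: all 13 protein-coding genes, both rRNA genes and 6 tRNA genes (mt-Tl1, mt-Tw, mt-Tn, mt-Tc, mt-Ty and mt-Tp). In edgeR's quasi-likelihood test over 14608 genes, with Benjamini-Hochberg adjustment and a threshold of 0.05, 2 members rose in the Vav1-Cre libraries, none fell and 19 did not pass. The background over all tested genes was 17.9% called, 10.1% higher and 7.89% lower, against 9.52% of the tested members. The median log2 fold change (Vav1-Cre minus floxed) was -0.01 over the 21 members and -0.02 over all tested genes. The members called were mt-Tn and mt-Tc, the tRNAs for asparagine and cysteine.

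**Figure D2:**
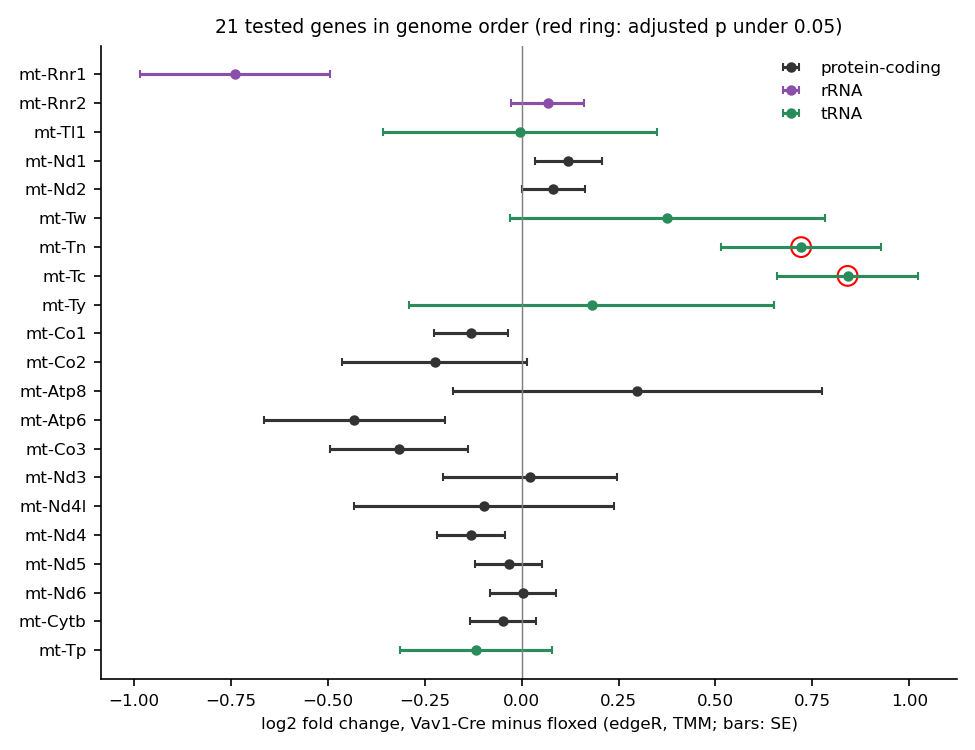
Log2 fold change (Vav1-Cre minus floxed, edgeR with TMM scaling) of the 21 tested genes in genome order, with bars of 1 SE and colours for the gene class. Only mt-Tn (0.72) and mt-Tc (0.84) carry the ring of an adjusted p under 0.05, and mt-Rnr1 (-0.74) is the lowest point with a wide bar.

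The pair that rose are neighbours on the minus strand of the mitochondrial chromosome, mt-Tn at chrM:5089-5159 and mt-Tc at chrM:5192-5257 (GRCm38). The 32 bases between them are where the origin of replication of the light strand is known to lie. Their sequences are shown because they are the called members, and those of mt-Th, mt-Ts2 and mt-Tl2, a run of plus-strand tRNA genes, because their counts are compared with them further on. Capitals mark the anticodon, found as the triplet of that tRNA preceded by a T in the middle of the gene, and all 5 are written 5′ to 3′ on the gene's own strand from GENCODE M21 transcripts.
mt-Tn: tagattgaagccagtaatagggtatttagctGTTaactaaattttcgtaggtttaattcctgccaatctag
mt-Tc: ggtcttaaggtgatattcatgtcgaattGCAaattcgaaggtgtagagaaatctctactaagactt
mt-Th: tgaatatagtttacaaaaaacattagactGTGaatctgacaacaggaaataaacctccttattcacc
mt-Ts2: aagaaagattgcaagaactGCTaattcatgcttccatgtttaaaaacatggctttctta
mt-Tl2: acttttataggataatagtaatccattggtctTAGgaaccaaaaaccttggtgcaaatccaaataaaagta

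The tRNA for cysteine, mt-Tc, had 160, 107 and 107 counts in the floxed libraries and 180, 188 and 175 in the Vav1-Cre libraries. In CPM these were 8.47, 5.74 and 5.76 against 11.64, 12.43 and 11.71, and every Vav1-Cre library was above the floxed ones. The scaled count was 1.79-fold higher, with a log2 fold change of 0.84 (SE 0.182, edgeR adjusted p = 0.00788). Without floxed library 2 it did not pass (log2 fold change 0.73, adjusted p = 0.0502).

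For mt-Tn, the asparagine tRNA, the counts were 141, 90 and 104 against 147, 176 and 125. Scaled, they gave 7.47, 4.82 and 5.60 CPM in the floxed and 9.51, 11.64 and 8.36 CPM in the Vav1-Cre libraries, again with no overlap. The scaled count was 1.65-fold higher (log2 fold change 0.72, SE 0.206, edgeR adjusted p = 0.0298). This call was lost without floxed library 2 (adjusted p = 0.13) or 3 (0.0861) and without Vav1-Cre library 1 (0.0817) or 2 (0.136). With limma on FPKM the call was lost as well (adjusted p = 0.0587). Summed raw counts of both genes overlapped (197 to 301 against 300 to 364), while their share of the mitochondrial counts was 0.0531% to 0.0852% in floxed and 0.112% to 0.137% in Vav1-Cre libraries.

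The labels do not say whether strand was kept in these libraries, so reads of minus-strand tRNAs and of plus-strand precursors across the same bases cannot be told apart. Nor do counts at genes of 66 (mt-Tc) and 71 bases (mt-Tn) tell a free tRNA from its uncut precursor, so they are not levels of the tRNA itself. The 37 tested nuclear genes of up to 100 bases had a median log2 fold change of 0.44, with 3 called higher, 1 lower and most not passing, against 10.1% called higher over all tested genes. The median was 0.175 for the 65 genes of up to 150 bases (4 higher, 1 lower) and 0.22 for the 128 genes of up to 300 bases (13 higher, 1 lower). The part of gene length in the tRNA result was not tested. Nearby in the same tRNA cluster, mt-Tw for tryptophan had 15, 33 and 22 counts against 33, 21 and 20 and did not pass (log2 fold change 0.38, SE 0.406, adjusted p = 0.566). mt-Ty for tyrosine, next to mt-Tc, had 23, 19 and 8 counts against 18, 12 and 16 and did not pass either (0.18, SE 0.471, adjusted p = 0.823).

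The most counted tRNA gene, mt-Tp for proline, had 601, 520 and 883 counts against 515, 528 and 456 and did not pass (log2 fold change -0.12, adjusted p = 0.724). With mt-Tn and mt-Tc it held 85.5% to 90.9% of all tRNA counts in each library, and all 3 lie on the minus strand, which carries 8 of the 22 tRNA genes. The leucine tRNA mt-Tl1, between mt-Rnr2 and mt-Nd1, had 37, 21 and 36 counts against 26, 27 and 23 (log2 fold change -0.01, SE 0.353, adjusted p = 0.994).

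The remaining 16 tRNA genes were below the count filter, with at most 16 counts in any library and summed counts of 23 to 55 per library. Both mt-Tf (phenylalanine) and mt-Td (aspartate) had 0 counts in all 6 libraries. By counting error alone this allows up to 0.159 to 0.201 CPM per library (3 counts). mt-Td lies between mt-Co1 and mt-Co2, whose copies on chromosome 1, described further on, are 140 bases apart, as are the genes. The part of this in its 0 counts was not tested. Among the other genes below the filter, a run of 3 plus-strand genes between mt-Nd4 and mt-Nd5 was singled out after its values were seen. The histidine tRNA mt-Th had 11, 8 and 4 counts against 0, 1 and 4, the serine tRNA mt-Ts2 had 1, 4 and 8 against 0, 1 and 0, and the leucine tRNA mt-Tl2 had 16, 10 and 16 against 7, 6 and 4. Summed, they gave 28, 22 and 28 counts in the floxed and 7, 8 and 8 in the Vav1-Cre libraries, opposite in direction to mt-Tn and mt-Tc. With so few counts none of the 3 passed when the filter was dropped (edgeR adjusted p = 0.323, 0.276 and 0.399), and the sum has no test because it was picked for its values.

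**Figure D3:**
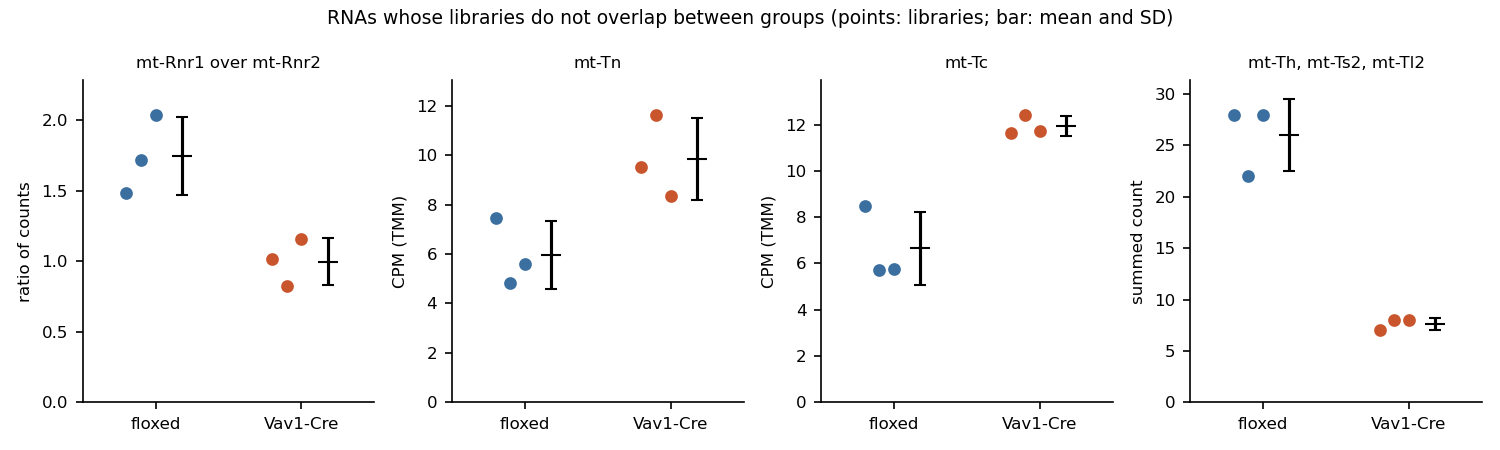
Ratio of mt-Rnr1 to mt-Rnr2 counts, CPM of mt-Tn and of mt-Tc, and summed counts of mt-Th, mt-Ts2 and mt-Tl2; points are libraries, bars the mean and SD. In each panel the 3 floxed libraries lie apart from the 3 Vav1-Cre libraries, with 22 to 28 against 7 to 8 counts in the last panel.

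The rRNA genes differed from each other in how they compared between groups. mt-Rnr1, the 12S rRNA of the small mitochondrial ribosome subunit (chrM:70-1024), had 12576, 11758 and 18021 counts in the floxed and 7101, 5368 and 8115 in the Vav1-Cre libraries. In CPM these were 665.8, 630.2 and 970 against 459.3, 355 and 542.8, and the groups did not overlap. This 1.67-fold difference (log2 fold change -0.74, SE 0.245) did not pass in edgeR (adjusted p = 0.11). It did pass in DESeq2 (adjusted p = 0.0441), in limma-voom (0.0326) and in edgeR with the robust option off (0.035), with log2 fold changes of -0.73, -0.73 and -0.74. It did not pass in the other settings. In edgeR these gave 0.116 (RLE), 0.102 (upper-quartile), 0.218 (no count filter) and 0.106 to 0.282 with a library left out. limma on FPKM gave 0.0876 and 0.0871.

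mt-Rnr2, the 16S rRNA of the large subunit (chrM:1094-2675), is separated from mt-Rnr1 only by mt-Tv, the valine tRNA, on the same precursor. It had 8465, 6856 and 8835 counts against 6981, 6530 and 7017, or 448.2, 367.5 and 475.6 CPM against 451.5, 431.8 and 469.4. The groups overlapped (log2 fold change 0.07, SE 0.0947, edgeR adjusted p = 0.667). The ratio of mt-Rnr1 to mt-Rnr2 counts, which needs no library scaling, was 1.486, 1.715 and 2.04 in the floxed and 1.017, 0.822 and 1.156 in the Vav1-Cre libraries. All 3 Vav1-Cre ratios were below the floxed ones, a pattern picked after the values were seen and given with no test. Of the 21 tested members, 2 were without overlap on the higher side and 1, mt-Rnr1, on the lower side, against 18.9% and 18.3% of all tested genes, or 14.3% against 37.2% in either direction.

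None of the 13 protein-coding genes passed the test. Their log2 fold changes ran from -0.43 to 0.30 with a median of -0.05, 8 below and 5 above 0, and adjusted p-values from 0.268 to 0.988 (edgeR), and all 13 overlapped between groups in CPM. With upper-quartile scaling mt-Nd3 and mt-Nd6 were below 0 as well. Complex I subunits were represented by 7 genes, whose largest differences were those of mt-Nd4 and mt-Nd1. mt-Nd1 measured 1956, 1696 and 2058 CPM against 2148, 2086 and 1970 (log2 fold change 0.12, SE 0.0863, adjusted p = 0.369). mt-Nd4 measured 1017, 860.4 and 1064 CPM against 923.5, 881.6 and 882.2 (-0.13, SE 0.0877, adjusted p = 0.334).

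mt-Nd2 measured 980.5, 888.1 and 1040 CPM in the floxed and 1051, 1049 and 977.5 CPM in the Vav1-Cre libraries. mt-Nd5 measured 914.9, 842.6 and 1039 against 927.4, 930.6 and 872.7 CPM. mt-Nd6, the protein-coding gene of the minus strand, measured 214.9, 202.7 and 240.7 against 237.2, 219.2 and 203.2 CPM. In all 3 the groups overlapped, with log2 fold changes of 0.08, -0.03 and 0.00 (SE 0.0814, 0.087 and 0.0858). mt-Nd6 ends within mt-Nd5, and the ratio of their counts was 0.232 to 0.241 in the floxed and 0.233 to 0.256 in the Vav1-Cre libraries.

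mt-Nd3 had 144, 97 and 163 counts in the floxed libraries against 125, 87 and 121 in the Vav1-Cre libraries. mt-Nd4l had 59, 35 and 93 counts against 52, 39 and 51. Both overlapped between groups and did not pass (log2 fold changes 0.02 and -0.10, SE 0.224 and 0.336).

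The apocytochrome b gene mt-Cytb, the mitochondrial subunit of complex III, measured 3151, 2840 and 3461 CPM against 3122, 3063 and 2949 (log2 fold change -0.05, SE 0.0847, adjusted p = 0.729). In complex IV, the catalytic subunit gene mt-Co1 measured 9149, 8271 and 10790 CPM against 8449, 8388 and 8915 (-0.13, SE 0.0944, adjusted p = 0.368). It was the most counted gene, with 48.9% to 50.5% of mitochondrial counts in floxed and 47.0% to 49.6% in Vav1-Cre libraries. For these abundant genes the floxed libraries spread more than the Vav1-Cre ones, with SDs of 1280 and 289 CPM for mt-Co1, and floxed library 3 was the highest of the 6 for both genes.

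mt-Co2, which encodes a copper-binding subunit of complex IV, had 1322, 985 and 1277 counts against 989, 577 and 923. mt-Co3 had 778, 644 and 824 against 545, 358 and 561. For mt-Atp6 of ATP synthase the counts were 787, 541 and 805 against 484, 310 and 489, and for mt-Atp8 they were 11, 12 and 10 against 13, 8 and 12. The log2 fold changes were -0.23, -0.32, -0.43 and 0.30 (SE 0.238, 0.178, 0.234 and 0.476), and none passed. With no count filter, mt-Atp6 and mt-Co3 were called lower (-0.45 and -0.34, edgeR adjusted p = 0.00315 and 0.0154). Vav1-Cre library 2 was the lowest of the 6 for mt-Co2, mt-Co3 and mt-Atp6.

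Levels per length, in the deposited FPKM (counts per gene length and library size), spread widely among the 13 mRNAs, although they come from shared precursors. In the floxed libraries mt-Co1 stood at 6036 ± 855, mt-Cytb at 2731 ± 285, mt-Nd1 at 1973 ± 204, mt-Nd2 at 926.3 ± 78.5 and mt-Nd4 at 705.8 ± 80.7 FPKM (SD, n = 3). mt-Nd5 (506.8 ± 56.8) and its neighbour mt-Nd6 (419.3 ± 39.5) followed. Their floxed ranges touch at 455.1 and 462.3, but within every library mt-Nd5 was above mt-Nd6. After them the levels dropped to 92.6 ± 14.3 for mt-Co2, 55.4 ± 11.7 for mt-Atp6, 50.6 ± 6.64 for mt-Co3, 20.5 ± 5.31 for mt-Nd3, 11.2 ± 5.33 for mt-Nd4l and 2.86 ± 0.239 for mt-Atp8. mt-Atp6 and mt-Co3 did not differ beyond their spread. The order was the same by the means of the Vav1-Cre libraries, from 5540 ± 197 for mt-Co1 to 3.54 ± 0.831 for mt-Atp8. In these libraries the rRNA genes lay within the mRNA range, at 784.8 ± 198 FPKM for mt-Rnr1 and 269.8 ± 36.7 for mt-Rnr2 in the floxed group. How the library kit captured rRNA is not known here, so these need not be levels in the cells. The part of capture in them, and in the ratio of mt-Rnr1 to mt-Rnr2, was not tested.

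The 6 low genes are consecutive on the chromosome, from mt-Co2 to mt-Nd4l (chrM:7013-10173). An alignment of the mitochondrial genes to all other GENCODE M21 transcripts found annotated pseudogenes in the same order on chromosome 1, chr1:24611535-24616197 (GRCm38, minus strand), a span of 4663 bases. The copies of mt-Co2 (Gm28661), mt-Atp6 (Gm10925), mt-Co3 (Gm28437), mt-Nd4l (Gm10222) and the aligned 876 bases of mt-Nd4 (Gm28439) had 0 mismatches. The copy of mt-Nd3 (Gm28438) and the 483 bases of mt-Co1 in Gm29216 had 1 each. Of mt-Atp8, only the 43 bases it shares with mt-Atp6 lie in an annotated copy there, but the copies of its neighbours mt-Co2 and mt-Atp6 are 233 bases apart, against 230 between the mitochondrial genes.

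The share of 50-base windows of each gene that occur unchanged in a nuclear transcript was 100% for mt-Co2, 99.5% for mt-Atp6, 99.9% for mt-Co3, 98% for mt-Nd3 and 98.8% for mt-Nd4l. It was 62.2% for mt-Nd4, 51.1% for mt-Co1, 8.2% for mt-Nd2, 7.6% for mt-Nd5, 1% for mt-Rnr2 and 0% for mt-Nd1, mt-Nd6, mt-Cytb, mt-Atp8, mt-Rnr1 and all 22 tRNA genes. Only annotated transcripts were searched, so a copy outside them would not be seen. The copies of mt-Co1 and mt-Co2 are 140 bases apart, as are the genes, with mt-Ts1 and mt-Td between them. Around mt-Tg (mt-Co3 to mt-Nd3) and mt-Tr (mt-Nd3 to mt-Nd4l) the copies are 69 and 74 bases apart, against 68 and 70. mt-Tn aligned along its 71 bases with a transcript of the nuclear gene Cep295, with 6 mismatches. mt-Tl1 aligned with the same gene along 62 of its 75 bases, with 4 mismatches. Pairs of gene and copy are printed to show the contrast between the chromosome 1 block and an older copy of mt-Cytb on chromosome 4 (Gm11410, 92.9% identity, 0 counts in all libraries). Each is a window of 60 bases at or near the start of the gene, 5′ to 3′ on its strand, from GENCODE M21 (GRCm38), with capitals where gene and copy differ.
mt-Co3: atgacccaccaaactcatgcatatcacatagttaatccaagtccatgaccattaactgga
Gm28437: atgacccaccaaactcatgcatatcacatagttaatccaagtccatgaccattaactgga
mt-Nd3: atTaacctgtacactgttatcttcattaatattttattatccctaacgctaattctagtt
Gm28438: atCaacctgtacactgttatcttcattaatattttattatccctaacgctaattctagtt
mt-Cytb: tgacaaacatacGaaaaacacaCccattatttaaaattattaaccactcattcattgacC
Gm11410: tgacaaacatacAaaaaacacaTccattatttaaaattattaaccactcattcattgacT

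Counts of the chromosome 1 copies stood differently to their mitochondrial partners from gene to gene. Gm10925 had 758, 672 and 849 counts in the floxed and 566, 495 and 529 in the Vav1-Cre libraries, beside 787, 541 and 805 and 484, 310 and 489 for mt-Atp6. Gm28661 had 914, 679 and 715 against 625, 456 and 586, and Gm28437 had 572, 496 and 620 against 422, 404 and 411. Those 3 copies are near their partners in count, whereas the copies of the abundant genes are far below them. Gm28439 had 174, 147 and 188 counts in the floxed libraries beside 19212, 16054 and 19771 for mt-Nd4, and Gm29216 had 234, 209 and 310 beside 172803, 154311 and 200414 for mt-Co1. Gm28438 had 32, 18 and 24 beside 144, 97 and 163 for mt-Nd3, and Gm10222 had 50, 32 and 42 beside 59, 35 and 93 for mt-Nd4l. The labels do not say how reads that match both places were assigned, and the part of this in the low levels was not tested. Levels of mt-Co2, mt-Atp6, mt-Co3, mt-Nd3, mt-Nd4l, mt-Nd4 and mt-Co1, and their comparison between groups, are therefore uncertain. That of mt-Atp8 (8 to 13 counts), which lies between mt-Co2 and mt-Atp6, is uncertain as well, because an unannotated copy there would not be seen.

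**Figure D4:**
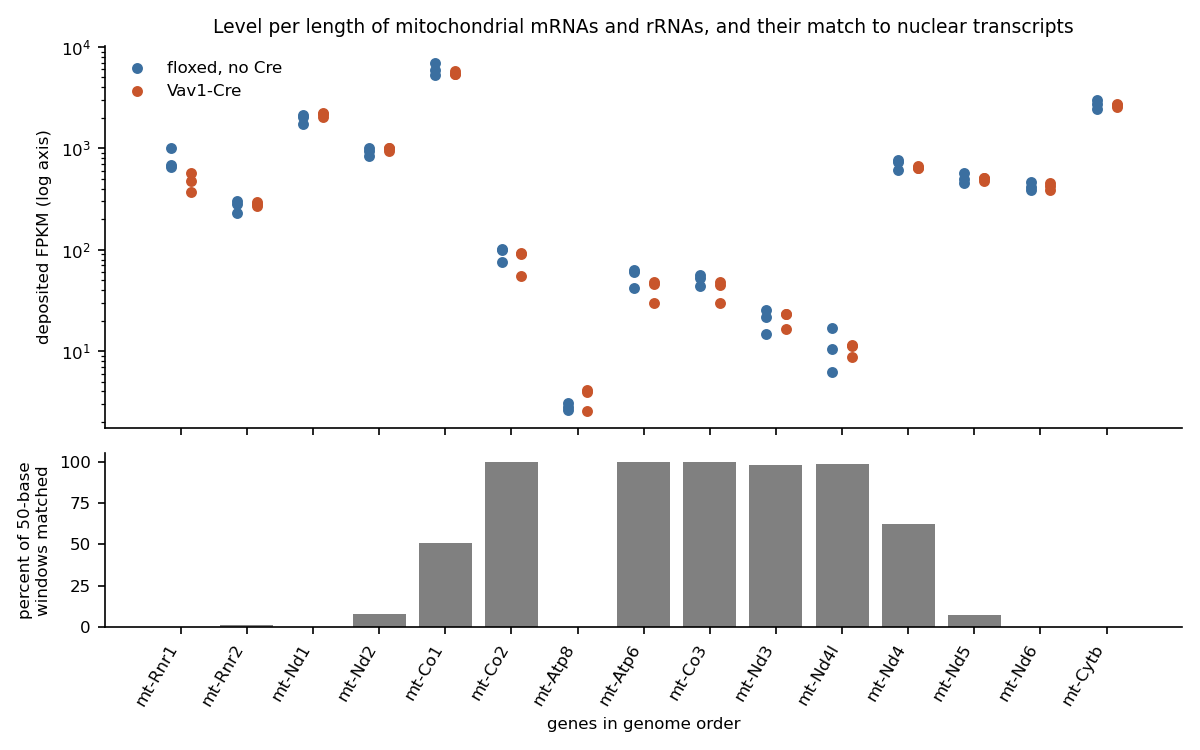
Deposited FPKM of the 13 mRNAs and 2 rRNAs in each library (top, log axis; colours are the groups) and the percent of 50-base windows of each gene found unchanged in a nuclear transcript (bottom). The 6 genes from mt-Co2 to mt-Nd4l have the lowest levels, and 98% to 100% of windows match for all of them but mt-Atp8.

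Nuclear subunits of the respiratory chain stood differently from the mitochondrial ones. The 75 nuclear subunit genes tested include 4 of complex II, which has no mitochondrial subunit. Of the 75, 39 rose (1 of them in complex II) and none fell, against 10.1% called higher over all tested genes. The median log2 fold change of the 75 was 0.30. Other tested genes in the middle range of their lengths (1032 to 2919 bases) had a median of 0.06 and 14.2% called higher. Summed FPKM of mitochondrial over nuclear subunits was 1.98, 1.967 and 2.264 in the floxed and 1.567, 1.803 and 1.798 in the Vav1-Cre libraries for complex I. It was 2.615, 2.521 and 2.87 against 1.917, 2.115 and 2.213 for complex III, where mt-Cytb is set against 9 nuclear subunits.

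For complex IV the ratio was 2.292, 2.312 and 2.768 against 1.552, 1.704 and 1.946. For complex V it was 0.0345, 0.0262 and 0.0365 against 0.0209, 0.0149 and 0.0252. The mitochondrial genes of complexes IV and V are all among those whose levels are uncertain, as given above. Those of complex V are both among the low genes. In complex I the uncertain ones are mt-Nd3, mt-Nd4l and mt-Nd4. In all 4 complexes every Vav1-Cre library was below every floxed library. The mitochondrial sums themselves overlapped between groups in each complex (4065 to 4984 against 4542 to 4904 FPKM for complex I), while the nuclear sums did not (2067 to 2342 against 2526 to 3129 FPKM). These ratios carry no test.

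**Figure D5:**
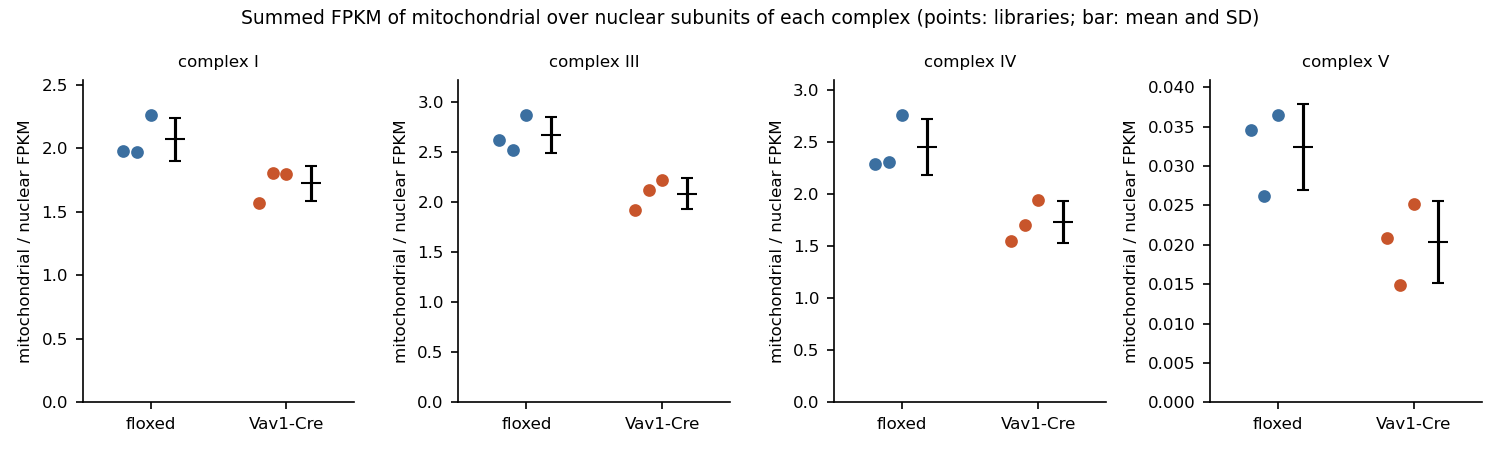
Ratio of summed FPKM of mitochondrial to nuclear subunits for complexes I, III, IV and V; points are libraries, bars the mean and SD. All Vav1-Cre points lie below the floxed points in each panel, for example 1.917 to 2.213 against 2.521 to 2.87 in complex III.

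Nuclear genes that replicate, transcribe and process the mitochondrial genome were nearly all without a call. Of 70 listed, 69 were tested, and 1 rose, none fell and 68 did not pass, or 0 calls among 19 genes of replication and nucleoid, 9 of transcription and 20 of RNA modification and 1 among 21 of RNA processing and stability. The background was 17.9% of all tested genes, and the median log2 fold change of the list was -0.03. Tfam, which packages mitochondrial DNA and starts transcription, measured 60.99, 60.89 and 63.25 CPM against 60.28, 60.97 and 61.61 (log2 fold change -0.02, SE 0.073).

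Polrmt, the mitochondrial RNA polymerase, measured 30.13, 31.41 and 30.2 against 24.83, 28.04 and 28.56 CPM (-0.17, adjusted p = 0.245). Its initiation factor Tfb2m measured 22.92, 22.03 and 24.33 against 17.46, 23.21 and 17.66 CPM (-0.25, adjusted p = 0.202). Lrpprc and Slirp form a pair that stabilises mitochondrial mRNAs. Lrpprc measured 33.51, 32.32 and 38.27 against 33.7, 37.43 and 35.79 CPM (0.04, adjusted p = 0.817), and Slirp 2.70, 4.23 and 3.61 against 3.17, 2.71 and 4.01 CPM (-0.09, adjusted p = 0.846). None of these 4 passed, and all but Polrmt overlapped between groups.

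Rexo2, which degrades very short RNAs in mitochondria, was the gene that rose. It measured 65.12, 61.58 and 69.11 CPM in the floxed and 129.3, 118.6 and 102.1 CPM in the Vav1-Cre libraries, with no overlap. The rise was 1.79-fold (log2 fold change 0.84, SE 0.0907, edgeR adjusted p = 0.000156), and it passed whichever library was left out (adjusted p from 4.93e-06 to 0.00319). The next 5 genes by p did not pass. Mgme1, a nuclease of mitochondrial DNA, measured 32.08, 30.55 and 34.77 against 26.13, 26.78 and 27.83 CPM (-0.27, adjusted p = 0.0663). The helicase Dhx30 measured 55.43, 66.09 and 58.46 against 49.54, 50.13 and 52.31 CPM (-0.24, adjusted p = 0.0675). In both, the groups did not overlap. The tRNA modifying enzyme Cdk5rap1 measured 11.59, 11.31 and 10.44 against 16.94, 17.79 and 10.9 CPM (0.45, adjusted p = 0.0909), with Vav1-Cre library 3 inside the floxed range. The rRNA methyltransferase Nsun4 measured 17.26, 15.44 and 17.28 against 15, 12.76 and 12.51 CPM (-0.31, adjusted p = 0.11), and Fastkd5 3.23, 4.34 and 4.25 against 2.52, 2.12 and 3.14 CPM (-0.60, adjusted p = 0.137), both without overlap.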

How the data were processed

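Per the file headers, the authors deposited a raw count and an FPKM value per Ensembl gene and library. Per the labels' protocols, RNA was extracted with TRIzol and libraries made with an Illumina TruSeq RNA kit; the submitters' processing notes name Bowtie and mm8. The counting tool, annotation and read length are not given in the sources read here. Identifiers matched GENCODE M21 (GRCm38) for 54409 of 54532 genes, unmatched ones holding at most 0.048% of counts, and the lengths implied by counts and FPKM equalled the annotated ones for all 35 members with a count, so positions are those of GRCm38. The deposited FPKM imply library sizes within 0.043% of the geometric mean total multiplied by DESeq2's size factors, so they are already scaled between libraries.

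Counts were tested with edgeR 4.0.16 in R 4.3.3 (quasi-likelihood, TMM, minimum count 10, robust option) over the whole table. The fit was tested on simulated data. Alternatives used DESeq2 1.42.0, limma 3.58.1 (voom, or log2 of FPKM plus 1 or 0.1, genes with a mean of at least 0.5), RLE, upper-quartile and nuclear-only scaling, no filter, no robust option, immunoglobulin genes removed, and each library left out. Copies were sought with BLAST 2.17.0 (word size 16, identity of at least 90%). Replicates differed beyond sampling noise (chi-square per gene of at least 8.64). Values by library are given for every member past the count filter, for 5 fixed nuclear genes and the 6 others of their list with the smallest p. Members and lists were chosen with earlier results of these data known.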

Additional observations from a re-analysis of the deposited data

How the results depend on the processing

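The 21 tested members were recomputed under 16 alternatives, giving 336 values: 324 kept their side of the threshold, 7 lost it, 5 gained it, and no called value changed sign. Among values not called in either fit, 9 members changed sign under some setting. The number of members called was 4 with no count filter (2 higher, 2 lower), 1 with limma on FPKM at either pseudocount, and 0 to 2 when each library was left out (0 without floxed library 2, when mt-Tc had an adjusted p of 0.0502). Calls in the nuclear list of mitochondrial genome maintenance and expression numbered 3 with upper-quartile scaling, 3 with no count filter and 1 to 2 with a library left out. The difference in mitochondrial percent of counts (Vav1-Cre minus floxed, -0.324 points) was -0.224 without immunoglobulin genes in the total, -0.111 over the effective library size and -0.417 to -0.205 with a library left out. With the median in place of the sum of nuclear subunits, the log2 ratio of complex III moved from -0.36 to -0.48. That of complex V moved from -0.67 to -0.83, that of complex IV from -0.50 to -0.56 and that of complex I from -0.265 to -0.219. The cause of these changes was not tested. No paired analysis was possible because the labels give no replicate numbers shared between the groups. At these depths 16 of the 22 tRNA genes had too few counts to pass the filter.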
